A study of Mus musculus with 8 samples.

Results

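The ribosomal protein genes examined here are 55 of the protein-coding genes of the cytosolic ribosome, 33 of the large (60S) and 22 of the small (40S) subunit. Their replication initiation sites (ISs) were all ISs of the deposited tables that overlapped one of these genes or lay within 2 kb of it, with genes and coordinates from GENCODE M1 on the mouse build mm9 and processed pseudogenes left out. By that rule 6 of 39116 ISs in the first table and 20 of 129937 in the second belonged to them. The cells were CH12, an established line from a murine B lymphoma, stimulated per the labels through IL4, CD40 and TGF beta. The assay was SNS-seq, the sequencing of short nascent strands, which purifies short DNA by size and by digestion with lambda exonuclease, which spares strands that still carry an RNA primer, so the read density at an IS follows how often replication starts there in the population.

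The groups were WT cells, Rif1KO cells, which lack RIF1, a protein known for its role in the timing of replication, and Rif1KO cells with a hairpin delivered by lentivirus. In Rif1KO_shLacZ the hairpin was directed at LacZ, and in Rif1KO_shMcm6 at Mcm6, which encodes a subunit of the MCM helicase that licenses origins. Both hairpin groups therefore carried the Rif1 deletion, and the LacZ hairpin, which has no target in mouse cells, was the control. The 8 libraries fell into 4 groups of 2. Each group had a list of called ISs, and each of the 2 contrasts had a merged table with 1 value per condition, in which both libraries were pooled. There was no replicate error and no test across replicates, so error below is counting error only, from the whole reads behind each value. The reads include PCR copies without molecular identifiers, and the intervals do not cover that.

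Ribosomal proteins and ribosomal RNA together form the machine that translates every mRNA. Their genes are short and are among the most highly transcribed of proliferating cells, many start transcription inside a run of pyrimidines (the TOP sequence), and many host snoRNA genes in their introns. Origins in mammals are often found near active promoters and near G-rich sequence. Both features were therefore described here.

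Sequencing depth differed between the contrasts. The first table, Rif1KO against WT, held 3350255 WT and 3724571 Rif1KO reads inside its ISs (medians 73 and 82 for 1 IS). The second, Rif1KO_shMcm6 against Rif1KO_shLacZ, held 21071351 Rif1KO_shLacZ and 23602750 Rif1KO_shMcm6 reads (medians 141 and 160). Densities are reads per 1000000 reads in the ISs of that table (RPM), so levels were not compared between tables.

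The sequences that recur in these ISs were stretches with 4 runs of GGG separated by gaps of 1 to 7 bases, looked for on both strands, a pattern that can fold into a G-quadruplex. All 6 ISs of ribosomal protein genes in the first table and 17 of 20 in the second held one, against 77.2% and 77.0% of all ISs, whose median widths were 447 and 596 bp beside 482 and 596.5 bp for the ribosomal protein genes. The shortest such stretch is shown for the 3 loci present in both tables, for the ISs with the lowest and highest fold changes of the second table that held one, and for a pair of distant ISs with the same letters. The capitals mark the runs, each line reads 5′ to 3′ on the strand named, and positions are on mm9.
Rpl5, intron, chr5:108331251-108331266, plus strand: GGGtGGGgGGGgtGGG
Rpl15, upstream, chr14:19104570-19104584, plus strand: GGGgGGGgGGGaGGG
Rpl38, upstream, chr11:114528506-114528520, plus strand: GGGtGGGgGGGaGGG
Rps20, upstream, chr4:3763297-3763314, minus strand: GGGtGGGgGGGaggtGGG
Rpl14, upstream, chr9:120479876-120479896, minus strand: GGGtGGGgggaggcGGGcGGG
Rpl15, downstream, chr14:19098732-19098749, minus strand: GGGagtGGGtGGGtaGGG
Rpl24, intron, chr16:55968237-55968254, minus strand: GGGagtGGGtGGGtaGGG
The Rpl15 and Rpl24 stretches on different chromosomes were identical over their 18 bases. Of the 20 ISs of the second table, 11 held the pattern on the strand of the gene, 5 on the other strand, 1 on both and 3 on neither. The 3 without it lay at Rpl27, Rps9 and Rps23. With gaps of up to 12 bases, 95% of the 20 held it.

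The first question was how many ribosomal protein genes had an IS at all. Few did, and fewest in WT cells. In the WT list 1 of 55 genes had a called IS in the gene or within 2 kb, Rpl15, which encodes a protein of the large subunit, against 26.9% of all 22380 protein-coding genes. In the Rif1KO list 5 of 55 did, namely Rpl5, Rpl8, Rpl26, Rpl38 and Rps9, against 28.2% of all genes. The hairpin lists were longer. In Rif1KO_shLacZ 13 of 55 had an IS against 46.3%, and in Rif1KO_shMcm6 10 of 55 against 48.9%. In the merged tables, 6 of 55 genes had an IS in the first, against 32.8% of all genes, and 14 of 55 in the second, against 53%. In each list the upper end of the exact 95% binomial (Clopper-Pearson) interval for the ribosomal protein genes, 9.72% for WT, 19.95% for Rif1KO, 37.0% for Rif1KO_shLacZ and 30.9% for Rif1KO_shMcm6, lay below the share of all genes.

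**Figure D1:**
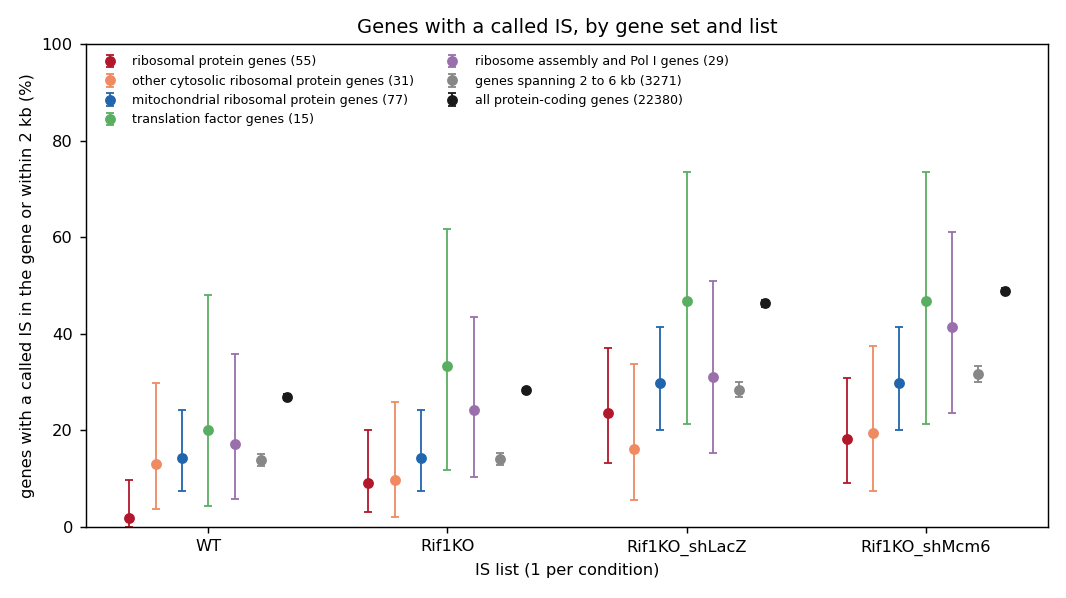
Share of genes with a called IS in the gene or within 2 kb (y axis, percent) in the IS list of each condition (x axis), for 7 gene sets whose sizes are in the key. Bars are exact 95% binomial intervals of the share over genes. The red points of the 55 ribosomal protein genes sit at 1.82%, 9.09%, 23.6% and 18.2%, below the black points of all genes in every list.

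Ribosomal protein genes are short. Their median span was 3568 bp, against 15420.5 bp for all protein-coding genes, and 41 of 55 spanned 2 to 6 kb. Among the 3271 protein-coding genes of that length, 13.8% had a called IS in the WT list, 14.0% in Rif1KO, 28.4% in Rif1KO_shLacZ and 31.6% in Rif1KO_shMcm6. The shares of the ribosomal protein genes were 1.82%, 9.09%, 23.6% and 18.2%. The interval of the ribosomal protein genes ended below the share of genes of like length in WT and Rif1KO_shMcm6, and contained it in Rif1KO and Rif1KO_shLacZ. The part of gene length in the low share was not tested beyond this class, which was chosen after the values had been seen.

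Other genes of the translation machinery gave a scale for these shares. Of 77 mitochondrial ribosomal protein genes, which serve the separate ribosome of mitochondria, 11 had an IS in WT, 11 in Rif1KO, 23 in Rif1KO_shLacZ and 23 in Rif1KO_shMcm6. Of 31 other cytosolic ribosomal protein genes, 4 had an IS in WT, 3 in Rif1KO, 5 in Rif1KO_shLacZ and 6 in Rif1KO_shMcm6. Of 15 translation factor genes whose mRNAs are known as TOP mRNAs, 3 had an IS in WT (Eef1a1, Eif3h and Naca), 5 in Rif1KO, 7 in Rif1KO_shLacZ and 7 in Rif1KO_shMcm6. Of 29 genes of ribosome assembly and RNA polymerase I, 5 did in WT (Fbl, Gar1, Nop2, Polr1b and Ubtf), 7 in Rif1KO, 9 in Rif1KO_shLacZ and 12 in Rif1KO_shMcm6. These sets were small and their intervals were wide. For the other cytosolic ribosomal protein genes in WT the 95% interval ran from 3.63% to 29.8%, which overlapped that of the 55 genes, 0.0460% to 9.72%.

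Which ribosomal protein genes carried ISs differed between lists. No gene had one in all 4 lists (exact 95% interval up to 6.49%), against 19.1% of all protein-coding genes and 8.16% of those spanning 2 to 6 kb. The shares were 9.09% of the mitochondrial set and 1 of 31 of the other cytosolic set. With 1 of the 55 genes in the WT list, at most 1 could have been in all 4. Of the 55 genes, 4 had one in 3 lists, 5 in 2 lists, 7 in 1 list and 39 in none. Rpl15 was in the WT and both hairpin lists. Rpl5, Rpl38 and Rps9 were in Rif1KO and both hairpin lists. Rpl5 binds 5S ribosomal RNA and, when not in a ribosome, the p53 regulator MDM2, and Rpl38 is known for its role in the translation of homeobox mRNAs. Rpl24, Rps16, Rps19, Rps20 and Rps23 were in both hairpin lists. Rpl7, Rpl27, Rpl37 and Rps25 were in Rif1KO_shLacZ, Rpl14 was in Rif1KO_shMcm6, and Rpl8 and Rpl26 were in Rif1KO.

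Both subunits were represented. Over both tables, 10 of 33 genes of the 60S subunit and 6 of 22 of the 40S subunit had an IS in at least 1 of them, or 29.1% of the 55 genes, against 56.5% of all protein-coding genes. The acidic stalk of the 60S subunit, which recruits elongation factors, is made of the products of Rplp0, Rplp1 and Rplp2, and 0 of these 3 genes had an IS in any list. Their nearest called ISs in WT lay 72283, 127135 and 32771 bp from the gene, and in Rif1KO_shMcm6 25758, 5561 and 22580 bp. Of the 5 genes whose proteins are known to bind MDM2 in the p53 checkpoint (Rpl5, Rpl11, Rpl23, Rpl26 and Rps7), Rpl5 and Rpl26 had an IS. Of 16 genes known from Diamond-Blackfan anaemia, a congenital failure of red cell production, 5 had one, namely Rpl5, Rpl15, Rpl26, Rpl27 and Rps19, the last the gene most often mutated in that disease. Set against the 56.5% of all genes, sets of 3, 5 and 16 genes are too small to place, with exact 95% intervals up to 70.8%, 85.3% and 58.7%.

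No IS was found at the other 39 genes in either table. Of the large subunit these were Rpl3, Rpl4, Rpl6, Rpl7a, Rpl9, Rpl10a, Rpl11, Rpl12, Rpl13, Rpl13a, Rpl17, Rpl18, Rpl19, Rpl22, Rpl23, Rpl28, Rpl30, Rpl32, Rpl34, Rpl35, Rplp0, Rplp1 and Rplp2. Of the small subunit they were Rps2, Rps3, Rps6, Rps7, Rps10, Rps12, Rps13, Rps14, Rps15, Rps18, Rps21, Rps24, Rps26, Rps27, Rps28 and Rps29. Genes with and without an IS had like spans (medians 3300 and 3783 bp), and the GC content within 500 bp of the main transcription start site (TSS) had medians of 58.2% and 57.6%. A snoRNA gene on the same strand lay within 4 of the 16 genes with an IS and 16 of the 39 without.

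Over all 55 genes, those with an IS included, the plot of distances shows the nearest called IS at a median of 25889 bp in WT, 22706 bp in Rif1KO, 9818 bp in Rif1KO_shLacZ and 15044 bp in Rif1KO_shMcm6. The medians for genes spanning 2 to 6 kb were 39440.5, 38712.5, 10635.5 and 8884 bp, and for all protein-coding genes 31212, 26639, 3620 and 2402 bp. The ribosomal protein genes thus lay nearer to an IS than the median of all genes in WT and Rif1KO and farther from one in both hairpin lists. The farthest in WT was Rpl32 (186425 bp) and in Rif1KO Rps20 (666245 bp), a gene whose IS was called 122 bp away in Rif1KO_shMcm6. At the edge of the 2 kb rule, the IS upstream of Rpl37 was called 1907 bp from the gene in Rif1KO_shLacZ and so counted, while its calls in Rif1KO and WT ended 2035 and 2139 bp away and did not. The next outside was the IS 2350 bp from Rps28 in Rif1KO_shMcm6.

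**Figure D2:**
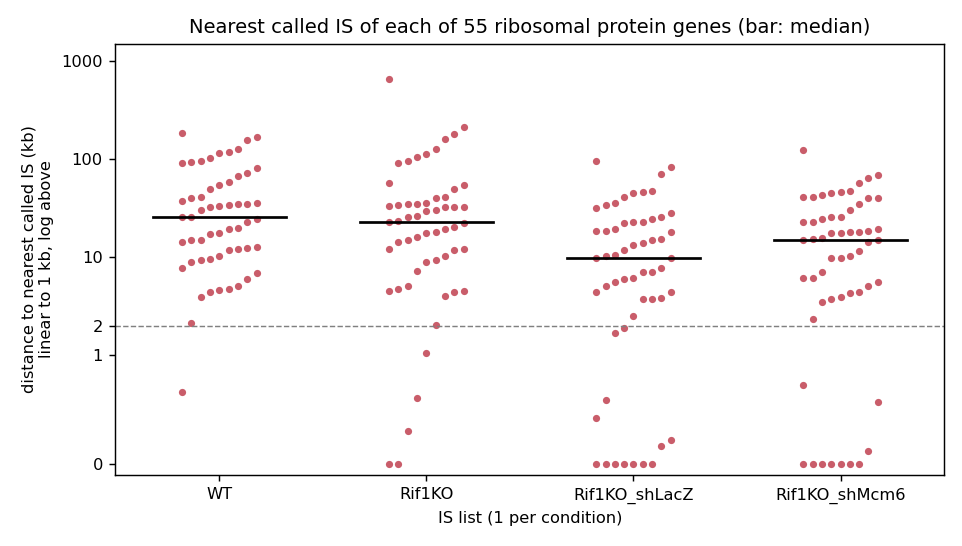
Distance from each of the 55 ribosomal protein genes (points) to the nearest called IS in kb (y axis, linear to 1 kb and logarithmic above) in each list (x axis). Black bars are medians and the dashed line is the 2 kb rule. The WT median of 25889 bp and the Rif1KO_shLacZ median of 9818 bp are the longest and the shortest of the 4 medians.

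The density of ISs was lower at the 55 ribosomal protein genes than around them. The set of other cytosolic ribosomal protein genes, given below, was not lowest at the gene in any list. In WT, 1 IS centre fell within the 488450 bp of the 55 genes and their 2 kb flanks, or 0.205 per 100 kb. Between 2 and 10 kb from the genes there were 15, or 1.70 per 100 kb, with 2.11 per 100 kb between 10 and 50 kb and 1.94 per 100 kb between 50 and 200 kb. For all protein-coding genes the same distances gave 1.17, 1.46, 1.44 and 1.42 per 100 kb, and for genes spanning 2 to 6 kb 1.85, 1.61, 1.59 and 1.55. In Rif1KO the ribosomal protein genes gave 1.02, 1.82, 2.36 and 2.05 per 100 kb, in Rif1KO_shLacZ 3.48, 4.43, 5.45 and 4.87, and in Rif1KO_shMcm6 3.07, 3.98, 5.48 and 5.27. In all 4 lists the density was lowest at the genes and exceeded that of all genes beyond 10 kb. All protein-coding genes also had their lowest density at the gene, 1.37, 3.71 and 4.199 per 100 kb in Rif1KO, Rif1KO_shLacZ and Rif1KO_shMcm6, against 1.58, 4.27 and 4.68 at 50 to 200 kb. Genes spanning 2 to 6 kb had their highest density at the gene, 1.94, 4.70 and 5.42 in those lists. The other cytosolic ribosomal protein genes had 2.16 per 100 kb at the gene in WT, from 5 IS centres, and 1.41 to 1.73 around it, and in the other lists 1.30, 3.46 and 3.89 at the gene, above the values at 2 to 10 kb (0.806, 2.42 and 3.63) and below those at 50 to 200 kb (1.91, 4.69 and 4.91). The mitochondrial set was lowest at the gene in WT (1.07, beside 1.22 at 2 to 10 kb) and Rif1KO_shMcm6 (3.72 beside 4.14), and lowest at 2 to 10 kb in Rif1KO (1.36 at the gene beside 1.22) and Rif1KO_shLacZ (3.79 beside 3.33). The counts at the genes were small (1, 5, 17 and 15 IS centres), and the distances overlap where neighbouring genes share a region.

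**Figure D3:**
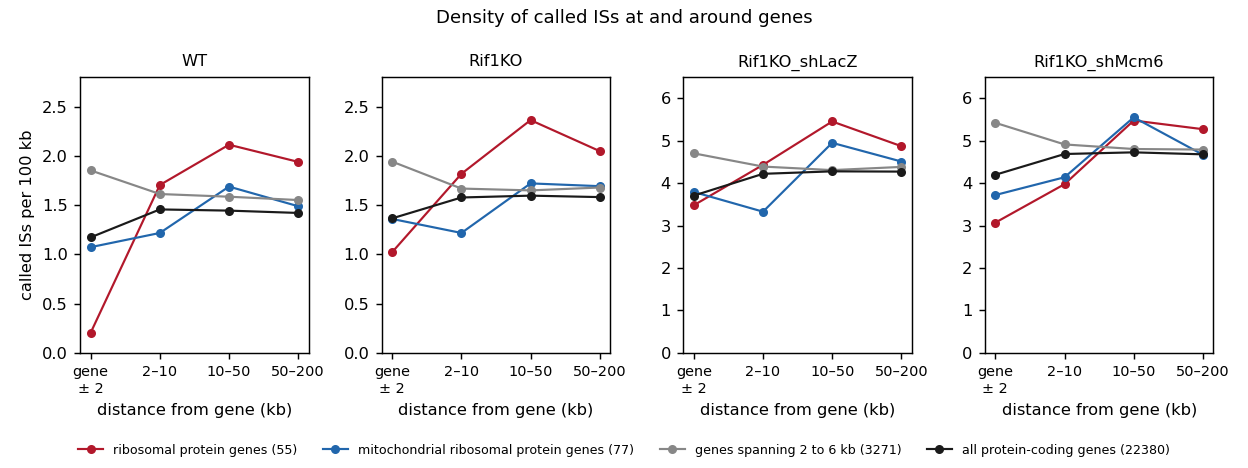
Called ISs per 100 kb (y axis; its range differs between panels) within the gene and its 2 kb flanks and in 3 distance ranges from the gene in kb (x axis), 1 panel per IS list. The red line of the 55 ribosomal protein genes rises from 0.205 at the gene to 2.11 at 10 to 50 kb in WT, while the grey line of genes spanning 2 to 6 kb falls from 1.85 to 1.59.

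Reads that fit more than 1 place were dropped by the authors, and ribosomal protein genes have many processed pseudogenes, so the share of 50-base sequences that occur once in mm9 was counted. Within the exons of the 55 genes 80.3% of 50-base sequences were unique, against 96.3% outside exons. Per gene with flanks the median was 93.6%, from 81.4% at Rpl27 to 97.8% at Rpl13a. Around the main TSS the median was 94.9% for the 55 genes and 100% for all protein-coding genes and for mitochondrial ribosomal protein genes. The least unique windows, Rpl27 (81.4%) and Rpl15 (83.2%), both had an IS, and medians for genes with and without an IS were 93.9% and 93.5%. What part the dropped reads have in the low share of genes with an IS was not tested.

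The lists hold consensus peaks kept inside clusters, and the number in each peak name runs along the genome within a replicate, which shows how many replicate peaks were left out between neighbouring ISs. Of the 54 ribosomal protein genes without an IS in WT, 9 (16.7%) lay in a gap where neither replicate had any further peak, against 9.07% of all genes without an IS. The counts were 10 of 50 in Rif1KO, 8 of 42 in Rif1KO_shLacZ and 7 of 45 in Rif1KO_shMcm6, against 9.32%, 9.68% and 9.28% of all genes. The gaps of the ribosomal protein genes were shorter, with a median of 196945 bp in WT against 333873 bp for all genes without an IS. In Rif1KO_shLacZ the medians were 73300.5 and 119849 bp, and the other lists had the same order. What part gap length has in these shares was not tested. For the other genes a replicate peak was left out somewhere in the gap, and whether it lay at the gene cannot be told from the files.

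Many of the ISs lay near promoters. In the first table, 4 of 6 (66.7%) lay within 1 kb of a TSS, and in the second 11 of 20 (55%), against 6.36% and 4.42% of all ISs. For ISs chosen by the same window the shares were 18.2% and 21.2% at mitochondrial and 20% and 27.3% at other cytosolic ribosomal protein genes. Within 500 bp of a TSS lay 33.3% and 40% of the ISs of the 55 genes. The choice of a window around short genes favours positions near a TSS. Along the strand of the gene, 4 of 6 and 10 of 20 ISs were centred upstream of the nearest TSS of the gene. The IS of Rps23, whose product sits at the decoding centre of the small subunit, was the 1 IS that covered the TSS of its gene (chr13:91062482-91063083, with its centre 4 bp from the TSS). Rps16 and Rps19 had an IS ending 26 and 47 bp before the gene, and both had another inside it. At Rpl24 the IS nearest the start was centred 1437 bp from a TSS, and its other 2 lay 19085 and 20638 bp from one, inside an annotated span of 42639 bp that is long for this family.

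Some ISs lay as close to a neighbouring gene. The upstream IS of Rpl15 (chr14:19104564-19105342 in the first table) was also within 2 kb of Nkiras1, that of Rpl8 of Commd5, that of Rpl7 of Rdh10 and that of Rps25 of Trappc4, where it ended 36 bp from a TSS. To which gene of such a pair an IS belongs cannot be told apart.

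**Figure D4:**
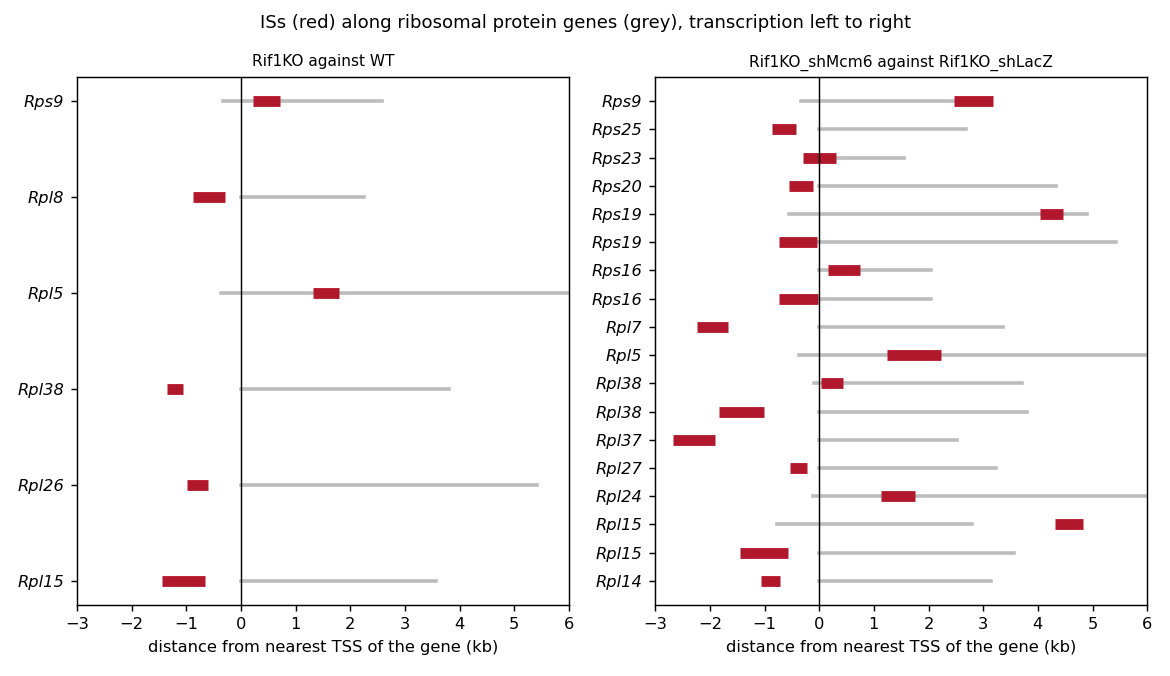
Position of each IS (red bars) along its ribosomal protein gene (grey line), in kb from the nearest TSS of the gene with transcription to the right, for both tables. The axis ends at 6 kb, so 2 ISs of Rpl24 centred 19085 and 20638 bp from a TSS are not drawn, and the IS of Rps23 is the bar across the TSS.

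The promoters with and without an IS are illustrated by 4 genes whose start fits the TOP pattern, with the 100 bases before the main TSS (that of the first-named coding transcript) and the 20 from it on, on the strand of the gene in mm9. Capitals mark a C within 5 bases of the TSS and the C and T bases that follow it without a break, at least 4 of them. Rpl14, Rpl27 and Rps23 had an IS within 1 kb of the TSS in the second table, and Rplp1 had none.
Rpl14, chr9:120480532-120480651, plus strand: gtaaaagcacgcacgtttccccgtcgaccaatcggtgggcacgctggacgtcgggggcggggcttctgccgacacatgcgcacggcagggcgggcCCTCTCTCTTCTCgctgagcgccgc
Rpl27, chr11:101303512-101303631, plus strand: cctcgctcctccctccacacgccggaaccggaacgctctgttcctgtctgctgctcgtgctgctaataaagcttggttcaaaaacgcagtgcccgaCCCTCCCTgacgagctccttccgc
Rps23, chr13:91062627-91062746, plus strand: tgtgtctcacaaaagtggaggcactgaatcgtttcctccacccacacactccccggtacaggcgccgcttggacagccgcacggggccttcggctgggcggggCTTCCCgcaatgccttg
Rplp1, chr9:61762326-61762445, minus strand: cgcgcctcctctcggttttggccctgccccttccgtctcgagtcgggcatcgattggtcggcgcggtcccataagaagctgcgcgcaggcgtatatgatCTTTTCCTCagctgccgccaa
By these letters 17 of 55 ribosomal protein genes had a TOP start, or 30.9%, against 17.7% of 22372 protein-coding genes with a main TSS. They were 3 of the 16 with an IS and 14 of the 39 without. The annotated start is often a few bases off, so a gene without the pattern in this window may still have it.

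At promoters the 55 genes gave few ISs in WT. An IS within 1 kb of the main TSS was called at 1 of 55 in WT (1.82%), 3 in Rif1KO (5.45%), 7 in Rif1KO_shLacZ (12.7%) and 7 in Rif1KO_shMcm6 (12.7%). For all protein-coding genes the shares were 7.43%, 7.11%, 14.3% and 16.7%. Each of these lay inside the 95% interval of the ribosomal protein genes, which in WT ran from 0.0460% to 9.72%. Among promoters of 50 to 60% GC, the class of 37 of the 55 genes, 0 of 37 had an IS in WT (upper end of the 95% interval 9.49%) against 6.29% of all, 2 of 37 in Rif1KO against 6.24%, 4 of 37 in Rif1KO_shLacZ against 14.8% and 3 of 37 in Rif1KO_shMcm6 against 16.7%. Among the 16 genes with promoters of 60% GC and over the counts were 1, 0, 3 and 4, against 14.6%, 12.9%, 21.1% and 25.2% of all.

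The next question was whether loss of RIF1 changed the density at these ISs. In the first table, 0 of 6 ISs passed a 1.5-fold change in either direction, which allows a share of up to 50% (3 counts of the total), against 4.96% of all ISs. Fold changes are Rif1KO over WT on the log2 scale. The median log2 fold change was 0.09, with a range from -0.32 to 0.45, beside 0.02 for all ISs. For the 4 ISs within 1 kb of a TSS it was -0.09, beside -0.14 for all ISs so placed. Summed over the 6 ISs there were 469 WT and 518 Rif1KO reads, a log2 fold change of -0.01 with a 95% interval from -0.19 to 0.17.

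Rpl15 had the highest density of the 6 in both conditions, a log2 RPM of 5.17 in WT (121 reads) and 4.86 in Rif1KO (108 reads), with the lowest log2 fold change, -0.32 (95% interval -0.70 to 0.07). It was the 1 IS of the 6 called in WT and not in Rif1KO. Rpl8, whose product lies near the catalytic centre of the large subunit, had 32.5 and 28.2 RPM, a log2 fold change of -0.21 (-0.61 to 0.19).
The other 4 had higher values in Rif1KO. Rps9, a 40S protein gene, had the lowest WT density, 15.5 RPM from 52 reads, against 21.2 RPM from 79 reads in Rif1KO, a log2 fold change of 0.45 (-0.07 to 0.98). Rpl38 had 16.4 and 18.5 RPM, Rpl5 had 23.0 and 25.5 RPM, and Rpl26 had 16.4 and 16.6 RPM. All 6 intervals contained 0, so no difference between WT and Rif1KO was detectable at this depth.

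Calls differed where densities differed little. None of the 6 ISs was called in both conditions, against 51.7% of all ISs, 5 were called in Rif1KO alone, against 34.1%, and 1 in WT alone, against 14.2%, while their densities differed by less than 1.5-fold. At 5 of the 6 the density was higher in the condition with the call, Rpl8 being the exception. WT densities of the 6 lay between the 15.1 and the 86.7 percentile of all WT densities. The 5 that were not called in WT had 52 to 109 WT reads, beside a median of 73 reads over all ISs.

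The last question was whether depletion of MCM6 in cells without RIF1 changed these ISs. In the second table, 0 of 20 ISs passed 1.5-fold, which allows a share of up to 15%, against 6.31% of all ISs. The median log2 fold change, Rif1KO_shMcm6 over Rif1KO_shLacZ, was -0.19, with a range from -0.47 to 0.34, beside -0.01 for all ISs and -0.04 for ISs within 1 kb of a TSS. Of the 20 ISs, 13 (65%) had a value below 0, against 51.6% of all ISs. At mitochondrial ribosomal protein genes 66.7% of 66 ISs did, with a summed log2 fold change of -0.14 (-0.18 to -0.10). At other cytosolic ribosomal protein genes 63.6% of 11 ISs did, with -0.05 (-0.15 to 0.04). Summed over the 20 there were 3088 Rif1KO_shLacZ and 3235 Rif1KO_shMcm6 reads, a log2 fold change of -0.10 (95% interval -0.17 to -0.02), and over the 11 within 1 kb of a TSS -0.17 (-0.27 to -0.06). With a looser threshold of 0.32 on the log2 scale, 6 of the 20 (30%) were lower in Rif1KO_shMcm6, against 11.4% of all ISs, and 1 (5%) was higher, against 14.3%. Between replicates the spread of such values is not known, and an interval from reads does not cover it.

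The lowest values belonged to Rpl27 and Rps20. At Rpl27, whose gene is among those known from Diamond-Blackfan anaemia, density was 3.94 RPM in Rif1KO_shLacZ (83 reads) and 2.84 RPM in Rif1KO_shMcm6 (67 reads), a log2 fold change of -0.47 (-0.96 to 0.01). At Rps20, a protein gene of the small subunit, it was 6.12 and 4.45 RPM, a log2 fold change of -0.46 (-0.85 to -0.08). Rpl27 was called in Rif1KO_shLacZ alone and Rps20 in both conditions.
Rps9 had 9.82 and 7.75 RPM, a log2 fold change of -0.34 (-0.64 to -0.05), at an IS near the end of the gene. The 2 ISs of Rps16 together had 13.5 and 11.2 RPM, a log2 fold change of -0.27 (-0.52 to -0.02). For Rps9, Rps16 and Rps20 the counting interval over the gene ended below 0, that is for 3 of 14 genes, near the share of 22.5% over all genes with an IS. It did so for 8 of 28 mitochondrial and 1 of 7 other cytosolic ribosomal protein genes. Over genes, the median log2 fold change was -0.22 for the 6 genes of the 40S subunit with an IS and -0.05 for the 8 of the 60S subunit, beside -0.05 for the 11865 protein-coding genes with an IS.

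The highest value was that of Rpl14, with 3.08 RPM in Rif1KO_shLacZ (65 reads) and 3.90 RPM in Rif1KO_shMcm6 (92 reads), a log2 fold change of 0.34 (-0.14 to 0.82). It was called in Rif1KO_shMcm6 alone and had the lowest density of the 20 ISs in Rif1KO_shLacZ. Rpl37 had 9.97 and 11.7 RPM, a log2 fold change of 0.23 (-0.04 to 0.49), and Rpl5 had 12.4 and 13.4 RPM, a log2 fold change of 0.12 (-0.12 to 0.36).
The densest genes in Rif1KO_shLacZ were Rpl24 (26.0 RPM over 3 ISs), Rpl15 (19.4 RPM over 2), Rpl38 (14.2 RPM over 2), Rps16 (13.5 RPM over 2) and Rpl5 (12.4 RPM over 1). Of these, Rpl24 had 23.1, Rpl15 had 18.05, Rpl38 had 14.2 and Rpl5 had 13.4 RPM in Rif1KO_shMcm6, and the counting intervals of these 4 contained 0. At Rpl38 the ISs differed in sign, with 0.24 upstream of the gene and -0.34 at its start.
The remaining genes were Rps19 (10.2 and 10.4 RPM over 2 ISs), Rpl7 (7.07 and 6.19 RPM), Rps23 (6.26 and 5.80 RPM) and Rps25 (4.65 and 4.11 RPM), all with intervals that contained 0.

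**Figure D5:**
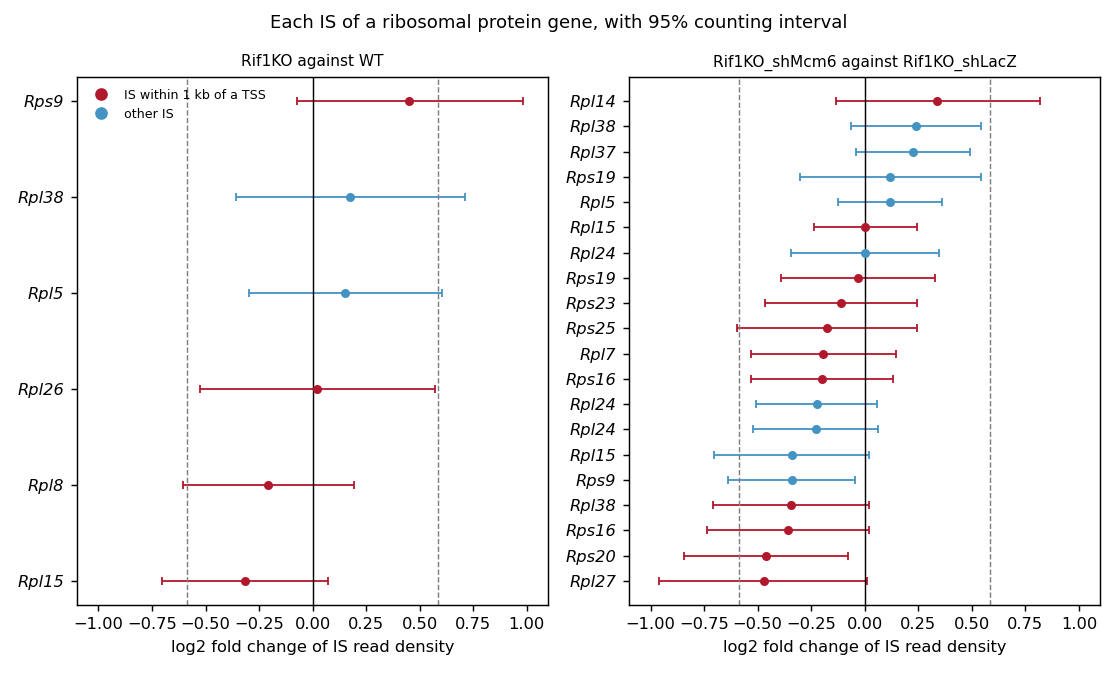
Log2 fold change of IS read density (x axis) for every IS of a ribosomal protein gene (rows, named by gene) in both tables, with exact 95% counting intervals. Red points lie within 1 kb of a TSS, dashed lines mark 1.5-fold and no point reaches them. The extremes are -0.32 and 0.45 in the left panel and -0.47 and 0.34 in the right panel.

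The other gene sets gave these values on the same scale. In the second table the median over genes was -0.06 for 7 other cytosolic ribosomal protein genes and -0.11 for 28 mitochondrial ribosomal protein genes (lowest Mrpl54 at -0.80, highest Mrpl45 at 0.87). It was 0.00 for 8 translation factor genes (lowest Eef1a1 at -0.54, highest Eif3e at 0.26) and -0.04 for 13 genes of ribosome assembly and RNA polymerase I (lowest Polr1a at -0.19, highest Polr1d at 0.68). In the first table the medians were 0.04 for 4 other cytosolic, -0.07 for 12 mitochondrial (lowest Mrpl54 at -0.69, highest Mrps6 at 0.30), 0.40 for 5 translation factor (lowest Naca at -0.36, highest Eif4b at 0.60) and -0.25 for 8 assembly genes (lowest Gar1 at -0.44, highest Ltv1 at 0.19). Over the 14 ribosomal protein genes of the second table the median was -0.14, next to that of the mitochondrial set.

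In the second table, 13 of the 20 ISs were called in both conditions (65%), against 65.8% of all ISs, 5 in Rif1KO_shLacZ alone (25%, against 11.1%) and 2 in Rif1KO_shMcm6 alone (10%, against 23.1%). Rpl5, Rpl15, Rpl38 and Rps9 had an IS in both tables, or 4 of the 6 genes of the first, against 89.5% of all genes with an IS in the first. At Rpl5, Rpl15 and Rpl38 the ISs overlapped, by 474, 779 and 306 bp, or 3 of the 6 ISs of the first, against 83.5% of all ISs there. At Rps9 they did not, since the IS of the first table lay near the start of the gene and that of the second near its end. Rpl26 and Rpl8 had an IS in the first table alone, and 10 genes in the second alone.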

How the data were processed

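Per the methods, 50-base reads were trimmed (Trim Galore 0.6.4, cutadapt 2.6) and aligned to mm9 by Bowtie 1.2.3, unique alignments being kept. Peaks came from MACS, run on each replicate with no input control, so regional differences in copy number or mappability were not removed. Consensus peaks of a condition were kept inside clusters (ClusterScan), and the sets of a contrast were merged with bedtools. The deposited tables hold log2 RPM, 1 pooled value per condition, and each column sums to 1000000 on the linear scale. Other deposited columns are names, numbers of merged peaks and the authors' class of fold change, of which the last was not used. On the linear scale 100% of values were whole multiples of 1 read to within 0.001 reads, so whole reads were recovered (checked on simulated data).

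With 1 value per condition, no limma or count-model test could be run. A share has an exact binomial interval over genes or ISs, and a fold change one from the reads of both conditions, at 95%. The limit given with a share of 0 ISs past a fold is 3 counts of the total. Named genes were the 5 highest and 5 lowest fold changes (at least 100 reads), the 5 densest, the stalk genes and all without an IS. Some items of the comparison set and of the promoters are not reported here. The members and lists were chosen with earlier results of these data known. The distance ranges, the length class, the counts of unique sequence, the gaps in peak numbers and the alternatives that leave out ISs near another gene or Rpl11 and Rpl24 were added after the values had been seen. Python 3.11.15, numpy 2.4.6, pandas 2.3.3, scipy 1.17.1 and pysam 0.24.0 were used.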

Additional observations from a re-analysis of the deposited data

How the results depend on the processing

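Of 69 alternatives over 14 results, 56 stayed within 1.5 times the count or within the counting error of the value (for medians, that of the summed reads), and 13 moved. Counting only overlap with the gene body, 0, 2, 7 and 7 ribosomal protein genes had a called IS in WT, Rif1KO, Rif1KO_shLacZ and Rif1KO_shMcm6, against 23.3%, 24.5%, 40.1% and 42.2% of all genes. Within 5 kb the counts were 6, 11, 19 and 16, against 31%, 32.4%, 52.7% and 55.3%. Without ISs also near another gene, an alternative chosen after seeing the data, WT had 0. In the first table the median log2 fold change over ISs and over genes was 0.30 for the gene body only (2 ISs), within 5 kb 1 of 13 ISs passed 1.5-fold (4.96% of all ISs), and 1 of 6 passed a looser threshold of 0.32 on the log2 scale (24.1% of all ISs). In the second table the median over ISs within 5 kb was -0.10 and 7 of 20 passed the looser threshold (25.6% of all ISs). No median changed sign. ISs called in both conditions gave no value in the first table, which had none. No paired analysis was possible because the deposited values pool both replicates, and for the same reason no replicate could be left out. With 52 to 121 WT reads per IS, none of the differences seen in the first table could be told from counting error.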
